A study of Sus scrofa with 5 samples.

Results

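The nuclei described here are aortic smooth muscle nuclei with the highest combined expression of HMCN1, CNTN5, CACNA1A, MYO18B, GALNTL6, TTLL7, WIF1 and MTUS2. A nucleus was eligible when it had at least 2000 UMIs (unique molecular identifiers, the count of captured RNA molecules) and at least 1 UMI of 3 or more of the smooth muscle genes MYH11, ACTA2, LMOD1, SYNPO2, CNN1, MYLK and SMTN. The panel score was the mean over the 8 panel genes of ln(1 + UMIs per 10000), and members were the top 5% of eligible nuclei over all libraries, with at least 3 panel genes detected. This gave 1050 members of 21000 eligible nuclei, taken from 24776 barcodes with 2000 or more UMIs and 45580 barcodes in all. The expression values of the 8 panel and 7 smooth muscle genes chose these nuclei, so their levels are given as a description with no test of members against the rest.

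Tissue was abdominal aorta from 5 Ossabaw pigs, a swine breed prone to obesity, all castrated males, with 1 library per pig. The obese group was 3 pigs on an HF/HFru diet, as the labels name it, and the control group 2 pigs on chow. All were 12 months old when the diets began, and the labels give the duration as 6 months in one field and 9 months in another. Frozen vessel pieces of about 50 mm were dissociated, and nuclei stained with DRAQ5, a DNA dye, were sorted before droplet capture, so shares describe the captured nuclei. No lesion score was used here, and 2 control pigs limit every comparison of the diets. Nothing in the labels pairs the pigs.

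The libraries held 22400089 to 47724416 UMIs each. Eligible nuclei made up 74.5% to 90.4% of the barcodes with 2000 or more UMIs in a pig. Of all barcodes, 199 occurred in more than 1 library, and 7 of the members (0.667%) carried such a barcode. Scrublet, a doublet caller, marked 2 nuclei in all by its own threshold, and doublets were not removed. Nuclei of highest Scrublet score were also listed, at an expected doublet rate of 0.8% per 1000 barcodes. In obese pigs 1 to 3 they made up 0%, 0% and 5.56% of members and 8.16%, 8.87% and 7.44% of the rest. In control pigs 1 and 2 they were 5.66% and 3.87% of members and 11.2% and 5.48% of the rest.

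Smooth muscle cells of the aortic media contract through smooth muscle myosin and actin, driven by calcium entry and release, and they also secrete the basement membrane and elastic fibres around them. In disease they can lower contractile genes and raise matrix and adhesion genes, a change called modulation. The panel joins several roles. HMCN1 encodes hemicentin 1, an extracellular matrix protein, and CNTN5 a contactin, an adhesion molecule best known from neurons. CACNA1A encodes the pore of the P/Q-type calcium channel and MYO18B an unconventional myosin known from striated muscle. WIF1 is a secreted inhibitor of Wnt ligands, GALNTL6 belongs to the family of enzymes that start mucin-type O-glycans, TTLL7 adds glutamate chains to tubulin, and MTUS2 binds microtubules.

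Members were rare in the obese pigs. They numbered 6 of 2849 eligible nuclei in obese pig 1, 9 of 4112 in obese pig 2 and 36 of 3974 in obese pig 3, against 689 of 6982 in control pig 1 and 310 of 3083 in control pig 2. As shares these were 0.211% (0.0773% to 0.458%), 0.219% (0.1001% to 0.415%) and 0.906% (0.635% to 1.25%) in the obese pigs, and 9.87% (9.18% to 10.6%) and 10.1% (9.02% to 11.2%) in the control pigs. The brackets hold exact binomial 95% intervals, which cover counting error only. The groups did not overlap, and the 2 control pigs differed by less than their counting intervals. The mean was 0.445% ± 0.399 (SD, n = 3) in obese and 9.96% ± 0.132 (SD, n = 2) in control pigs, so 95.1% of members, 999 nuclei, came from the control pigs. The difference was -9.52 percentage points (exact two-sided permutation test over 10 assignments, p = 0.2, the smallest that 3 against 2 pigs allow). It ran from -17.6 points for the top 10% by score to -5.03 points for the top 2.5%, and from -8.45 to -9.80 points when each panel gene was left out of the score. These alternatives reuse the panel's own values. The panel was drawn up with earlier results of these data known, so neither the difference nor its range is independent support for it.

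**Figure D1:**
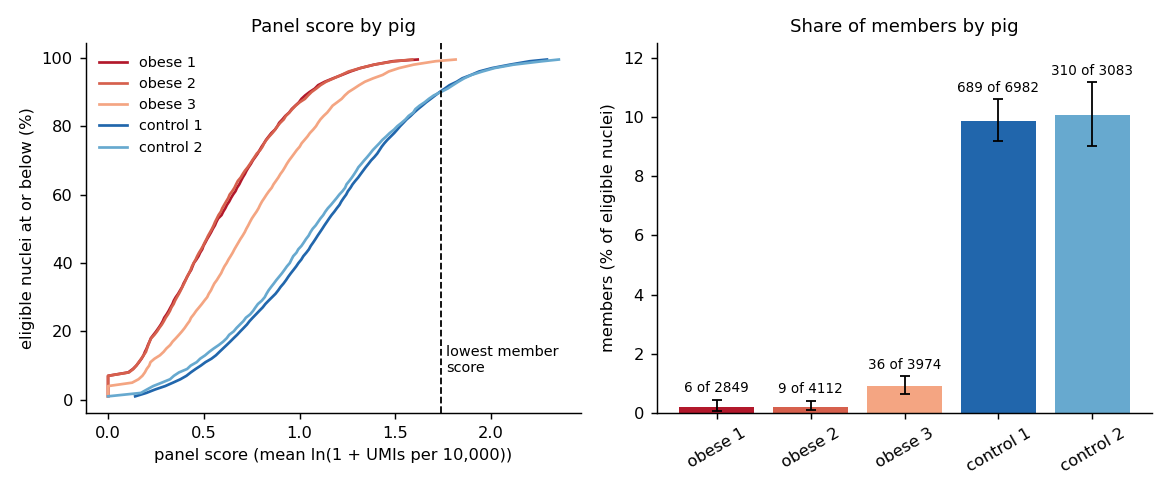
Left, cumulative percentage of eligible nuclei (y axis) by panel score (x axis, natural log scale) for each pig, with the lowest member score of 1.74 as a dashed line. Right, members as a percentage of eligible nuclei in each pig, with exact binomial 95% intervals and counts above the bars. At the median both control pigs lay to the right of the obese pigs (1.12 and 1.07 against 0.543 to 0.722), and no curve has a step at the dashed line.

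The panel score was graded, with no gap at the threshold. The lowest member scored 1.7362, to 4 decimals the same as the highest nucleus outside. Of the members, 374 (35.6%) lay within 0.1 above the threshold, and 444 other nuclei lay within 0.1 below it. The median score was 1.89 in members and 0.787 in the rest, and the highest score was 2.77. Median scores over all eligible nuclei were 0.547, 0.543 and 0.722 in obese pigs 1 to 3 and 1.12 and 1.07 in control pigs 1 and 2, so the groups differed at the middle of the distribution as well as at its top. The top 5% of a pig by its own scores began at 1.22, 1.22 and 1.43 in the obese pigs and at 1.90 in both control pigs.

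Members were not uniform in which panel genes they carried. They held a median of 6 of the 8 genes, against 3 in the rest, and 90 members (8.57%) held all 8. HMCN1 made the largest contribution to the score in 463 members (44.1%), GALNTL6 in 274 (26.1%), MTUS2 in 121 (11.5%), CNTN5 in 87 (8.29%), TTLL7 in 48 (4.57%), CACNA1A in 39 (3.71%), WIF1 in 16 (1.52%) and MYO18B in 2. The order differed between the groups. HMCN1 led in 47.9% and 40.0% of members in control pigs 1 and 2, while GALNTL6 led in 5 of 6 members of obese pig 1 and 5 of 9 of obese pig 2. In obese pig 3, MTUS2 led in 11 of 36, GALNTL6 in 10 and HMCN1 in 8.

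Levels are given as CPM, a gene's UMIs summed over the nuclei of a pig and scaled to the same total in each sum, with obese pigs 1 to 3 first and control pigs 1 and 2 second. HMCN1 in members stood at 327, 1562 and 1889 CPM in the obese pigs and 4000 and 2836 CPM in the control pigs, against 201, 637, 803, 1979 and 1292 CPM in the rest. It was thus higher in the rest of control pig 1 than in the members of any obese pig. CNTN5 in members was at 2025, 1680, 671, 1113 and 1711 CPM, against 123, 291, 127, 220 and 279 CPM in the rest, so members exceeded the rest in every pig. MYO18B in members was at 21.8, 134, 149, 319 and 299 CPM, against 43.9, 39.7, 76.2, 129 and 127 CPM in the rest. It was the exception in obese pig 1, where its members carried a single UMI and lay below the rest. For the other 5 panel genes members exceeded the rest in 5 of 5 pigs.

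Detection outside smooth muscle differed between the panel genes. HMCN1 was detected in 99.3% and 98.4% of members of control pigs 1 and 2 and in 84.1% and 79.3% of the rest. It was also detected in 86.9% and 73.8% of fibroblast nuclei and 69.2% and 53.2% of endothelial nuclei of these pigs, types that were set by at least 3 of their markers and under 3 smooth muscle genes. No estimate of free RNA was made, so these shares are of nuclei with a UMI and not of nuclei expressing the gene. MYO18B was detected in 68.9% and 69.4% of members and 30.5% and 29.4% of the rest, against 2.19% and 4.76% of fibroblast nuclei and 5.41% and 0% of endothelial nuclei. CNTN5 was detected in 63.6% and 77.4% of members, 20.8% and 27.1% of the rest, 11.7% and 9.52% of fibroblast nuclei and 11.4% and 16.5% of endothelial nuclei. Both were thus more often detected in smooth muscle than in these types. Median depths in control pigs 1 and 2 were 5923 and 6181.5 UMIs in members, 4109 and 4000 in the rest, 5070 and 3787 in the 137 and 42 fibroblast nuclei, and 6985 and 6841 in the 185 and 109 endothelial nuclei. With all nuclei thinned to 2000 UMIs, HMCN1 was detected in 95.8% of members of both control pigs and in 74.5% and 67.3% of the rest.

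To describe how far the panel genes went together, each was left out in turn and its level compared between nuclei picked by the other 7 genes and the remaining nuclei, as a description. HMCN1 was 1.41 and 1.47 times higher in nuclei picked without it in control pigs 1 and 2, CNTN5 1.52 and 1.95 times, MYO18B 1.36 and 1.38 times and GALNTL6 1.32 and 1.40 times. TTLL7 had ratios of 1.196 and 1.40. These 5 genes were therefore higher in such nuclei in both control pigs, by less than 2-fold. CACNA1A had ratios of 0.983 and 1.41 and WIF1 of 0.963 and 1.50, above 1 in control pig 2 alone. MTUS2 had ratios of 0.847 and 0.798, so it was lower in nuclei picked by the other 7 genes. The obese pigs had 0 to 73 such nuclei for any gene and their ratios are not read.

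**Figure D2:**
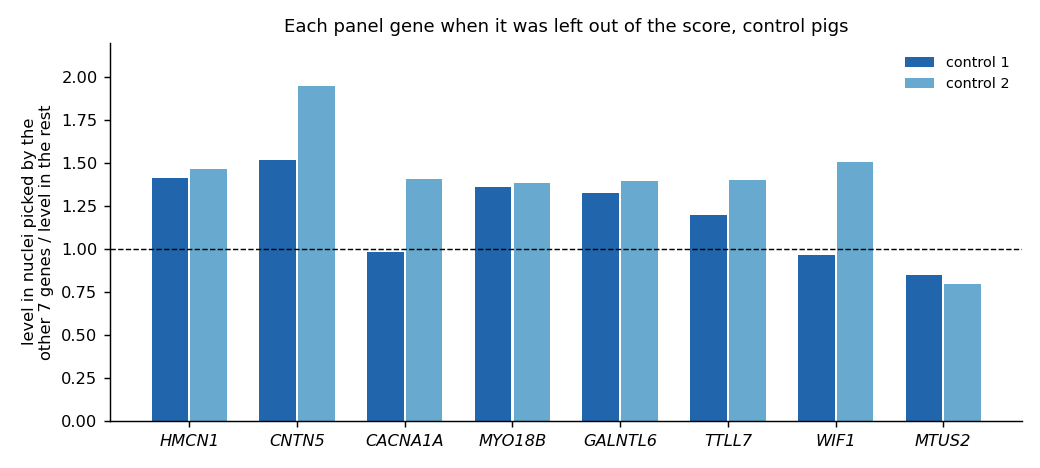
Ratio of each panel gene's level (CPM) in nuclei picked by the other 7 panel genes to its level in the remaining eligible nuclei, in control pigs 1 and 2. The dashed line marks equal levels. HMCN1, CNTN5, MYO18B, GALNTL6 and TTLL7 lie above 1 in both pigs and MTUS2 lies below 1 in both.

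Members had more UMIs per nucleus than the rest. Median UMIs per nucleus were 6320.5, 4458 and 4498.5 in members of obese pigs 1 to 3 and 5923 and 6181.5 in members of control pigs 1 and 2, against 4073, 4140, 3867.5, 4109 and 4000 in the rest. Members were deeper in 5 of 5 pigs, with a mean log2 ratio of 0.42 ± 0.24 (SD, n = 5, exact two-sided sign-flip permutation test, at the smallest p that 5 pigs allow, which is above 0.05). With every nucleus thinned to 2000 UMIs before scoring, that ratio was 0.075 (p = 0.5625, exact test) and the shares were 0.549% in obese and 9.78% in control pigs, so the difference between the diets was -9.24 points. In control pig 1 members made up 5.65% of nuclei with 2000 to 3000 UMIs and 16.9% of those with 8000 or more, and in control pig 2 5.75% and 18.6%. Control pigs held the larger share in every depth class. Median mitochondrial UMIs were 0% in members and in the rest of each pig.

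**Figure D3:**
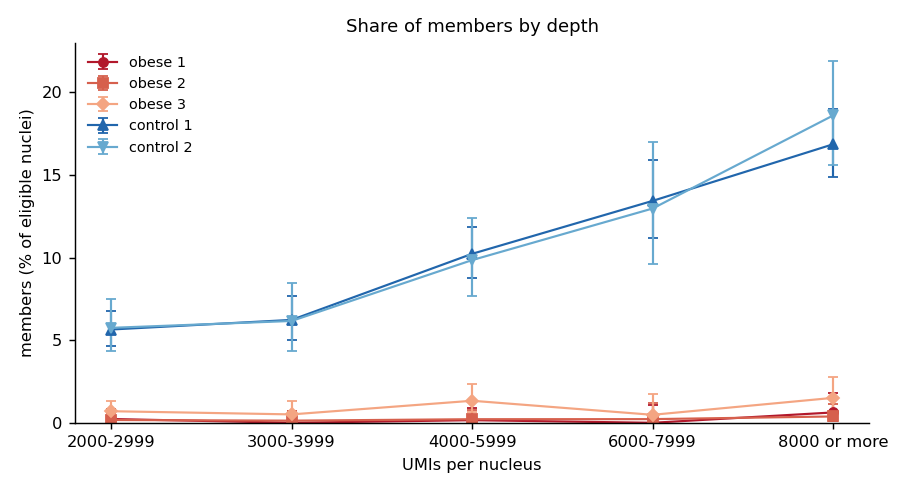
Members as a percentage of eligible nuclei (y axis) in 5 classes of UMIs per nucleus (x axis) for each pig, with exact binomial 95% intervals. Both control pigs climb from 5.65% and 5.75% to 16.9% and 18.6%, while no obese pig passes 1.51% in any class.

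Across all eligible nuclei, where the threshold plays no part, each panel gene had a lower mean in the obese pigs. HMCN1 was at 202, 640 and 816 CPM in obese pigs 1 to 3 and 2232 and 1495 CPM in the control pigs, a log2 difference of -1.75 (SE 0.50). MYO18B was at 43.8, 39.9 and 77.1 CPM against 153 and 150 CPM (log2 -1.48, SE 0.34), and CNTN5 at 129, 295 and 133 CPM against 332 and 467 CPM (log2 -1.17, SE 0.33). All 3 genes separated the groups with no overlap. TTLL7 (log2 -1.03), WIF1 (log2 -0.90) and MTUS2 (log2 -1.26) did so too, whereas CACNA1A (log2 -1.12) and GALNTL6 (log2 -0.61) overlapped, the latter because obese pig 1 had 809 CPM against 663 CPM in control pig 2. Over all 18385 genes tested, 14.2% had all 3 obese pigs below both control pigs. None of the 8 passed edgeR's quasi-likelihood test with Benjamini-Hochberg adjustment, with adjusted p from 0.116 for MYO18B to 0.558 for GALNTL6, where 0.179% of all genes passed in either direction. Their median log2 difference was -1.15, beside 0.01 over all genes. Without obese pig 3, HMCN1 (adjusted p = 0.0256), MYO18B, TTLL7, WIF1 and MTUS2 passed edgeR's test, and without obese pig 2 CNTN5 did. With no filter on low counts 7 of the 8 passed, all but GALNTL6. DESeq2's Wald test called HMCN1, CNTN5, MYO18B and TTLL7, and MYO18B and MTUS2 passed with the replicate number as a block, although those numbers do not pair the pigs. Each panel gene passed in 0 (GALNTL6) to 4 (MYO18B) of 9 alternatives. A lower sum over nuclei cannot tell fewer expressing nuclei from less RNA in each. The panel was drawn up with earlier results of these data known, so none of these calls is independent support for it.

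**Figure D4:**
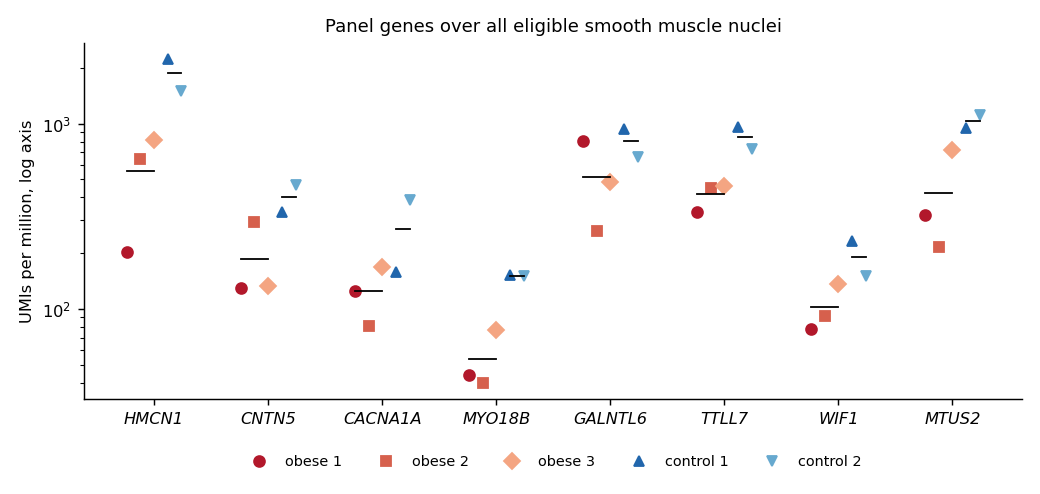
Level of each panel gene summed over all eligible smooth muscle nuclei of a pig, in CPM on a log axis, with the group means as black lines. Obese pigs lie below both control pigs for all genes but CACNA1A and GALNTL6.

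Members were smooth muscle by their markers, as the rule demands. MYH11, the smooth muscle myosin heavy chain, was at 3353, 3971, 3437, 3332 and 3194 CPM in members and 2355, 2606, 2931, 2816 and 3181 CPM in the rest. ACTA2, smooth muscle actin, was at 3244, 2811, 3581, 1580 and 1377 CPM against 1313, 1382, 2510, 1216 and 1201 CPM. Both were at least as high in members as in the rest in 5 of 5 pigs, and CNN1 in 1 of 5 (control pig 1). Markers of other cell types differed in direction. The summed CPM of 8 endothelial markers was 65.3, 0, 24.1, 76.5 and 72.2 in members, against 106, 145, 73.4, 291 and 231 in the rest, and PECAM1 carried UMIs in members of both control pigs. At least 3 of these markers were found together in 0.726% of members of control pig 1 and in 0% of those of the other 4 pigs, against 0.406% to 2.92% of the rest. The summed CPM of 9 macrophage markers was 0, 223, 273, 325 and 381 in members and 225, 483, 214, 353 and 265 in the rest. Where that sum was above 0 in members, most of it was MERTK. MERTK was at 0, 178, 257, 312 and 368 CPM in members and 130, 186, 187, 322 and 230 CPM in the rest. The other macrophage markers together were lower in members of each pig. At least 3 macrophage markers occurred in 8.31% of the rest of obese pig 2. The summed CPM of 8 markers of pericytes, mural cells of small vessels that share many genes with smooth muscle, was 610, 773, 824, 895 and 1136 in members and 587, 665, 741, 854 and 1019 in the rest. It was higher in members of 5 of 5 pigs, and at least 3 of these markers occurred in 50.0%, 22.2%, 47.2%, 43.4% and 55.2% of members against 19.3%, 24.6%, 24.1%, 30.0% and 36.4% of the rest, without correction for depth. STEAP4 and HIGD1B, both on the pericyte list, were at 0 in members of all 3 obese pigs, and STEAP4 in those of both control pigs. Fibroblast markers summed to 109, 223, 547, 391 and 413 CPM in members and 289, 347, 507, 476 and 533 CPM in the rest, higher in members of obese pig 3 alone. Schwann cell markers were higher in members of obese pig 3 (555 against 312 CPM) and control pig 1 (277 against 232 CPM) and lower in the other 3 pigs. The part of these cell types in the results was not tested.

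Members were then compared with the rest on genes that the rule did not use, with counts summed per pig and set and the pig as a block (edgeR quasi-likelihood test, called at an adjusted p under 0.05). Over the 5 pigs 49 genes were called higher in members (0.347% of 14136 tested) and 630 lower (4.46%). The members of obese pigs 1 and 2 held only 45926 and 67241 UMIs together, so the comparison was also made in the control pigs alone, whose members held 4874646 and 2244837 UMIs. There 351 genes were called higher (2.34% of 15009) and 802 lower (5.34%). Of the 679 genes called over 5 pigs, 583 were also called, with the same sign, in the control pigs. The 4 sums of that comparison leave 1 residual degree of freedom, so its p-values lean on the spread shared among genes. With the rest of the control pigs drawn to match the members' UMIs, 373 genes were called higher (2.81%) and 730 lower (5.49%), and 964 of the 1153 calls were shared. With nuclei left out that held 3 or more endothelial, fibroblast or macrophage markers, 68 were called higher (0.478%) and 177 lower (1.25%), and 240 of the 1153 calls were shared. Over 5 pigs with matched depth, which left 5511 genes, edgeR called 0 higher and 41 lower (406 genes at an unadjusted p under 0.05).

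Genes higher in members included guidance, adhesion and receptor genes. SEMA3E, a secreted guidance ligand of the semaphorin family, was at 2460, 1309 and 908 CPM in members of the obese pigs and 1391 and 1355 CPM in those of the control pigs, against 678, 675, 665, 1090 and 857 CPM in the rest. It was higher in members of 5 of 5 pigs and rose by 0.73 on the log2 scale (SE 0.18, edgeR adjusted p = 0.00198). PCDH7, a protocadherin, rose by 0.68 (SE 0.16, from 1352 to 1988 CPM in the rest of the 5 pigs to 2436 to 3810 CPM in members). LRP1B, a large endocytic receptor, rose by 0.64 (SE 0.17) and ERBB4, a receptor tyrosine kinase for neuregulins, by 0.64 (SE 0.18). ROR1, a Wnt5a receptor kinase, was at 6968, 6603, 7512, 5891 and 6757 CPM in members and 4240, 3577, 5752, 4085 and 5026 CPM in the rest (log2 0.47, SE 0.14). These genes were higher in members of every pig, which the naming rule required. The ranges of members and rest were apart for PCDH7, ERBB4 and ROR1 and overlapped for SEMA3E and LRP1B. All 5 were called in the control pigs alone. The remaining rises that met the naming rule were HELLS, a chromatin remodeller, HMGCLL1, an enzyme of ketone body synthesis, and STON2, an endocytic adaptor (log2 0.98, 0.87 and 0.83), at 8.46 to 149 CPM in members. HELLS was not called in the control pigs alone (edgeR adjusted p = 0.184) and was detected in 4 of the 51 members of obese pigs. With nuclei holding markers of other types left out, 1 of the 8 stayed called over 5 pigs (STON2). With those nuclei left out, 6 of the 8 stayed called in the control pigs, at log2 0.79 for STON2, 0.63 for PCDH7, 0.52 for ROR1, 0.51 for SEMA3E, 0.47 for ERBB4 and 0.40 for LRP1B, and HELLS and HMGCLL1 did not. The rises over 5 pigs depended on the settings. SEMA3E and PCDH7 were called in 18 of 24 alternatives, LRP1B and ERBB4 in 16, ROR1 and STON2 in 13, HMGCLL1 in 12, and HELLS in 4 of 23. With a minimum of 3000 UMIs, with the top 2.5% by score and without the pig as a block, 0 of the 8 were called, and neither was any of the 7 that could be tested with the rest matched on UMIs over 5 pigs. With the score thinned to 2000 UMIs, SEMA3E, LRP1B and HELLS were called, and PCDH7 (log2 0.39), ERBB4 (0.47), ROR1 (0.25), STON2 and HMGCLL1 were not. For the top 2.5%, PCDH7 had a log2 difference of 0.087 and SEMA3E one of -0.06, so the direction of SEMA3E turned.

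Genes lower in members included receptors and regulators that were nearly absent from them. EDNRB, the endothelin B receptor, was at 0 in members of the 3 obese pigs and at 1.23 and 0.446 CPM in those of the control pigs, in 7 nuclei in all. In the rest it was at 51.1, 38.3 and 22.3 CPM in obese and 18.6 and 20.3 CPM in control pigs, and it fell by 4.32 on the log2 scale (SE 0.48, edgeR adjusted p = 7.33e-16). ARHGAP28, a GTPase activating protein, fell by 4.38 (SE 0.46), UBASH3B, a phosphatase, fell by 3.81 (SE 0.47), LHFPL3 fell by 3.65 (SE 0.41) and ARHGAP15, a Rac regulator, fell by 3.44 (SE 0.39). These 5 and PRKCH, a protein kinase C, were called under all 23 alternatives that tested them. Being lower in members of 5 of 5 pigs was required for naming these falls. BMP6, a ligand of the BMP family, MYRIP, a Rab and myosin adaptor, and PLCG2, a phospholipase, fell, with log2 differences of -3.96, -3.75 and -3.66. They were not called once nuclei with markers of other types were left out, where their log2 differences were -0.96, -0.45 and -1.03. CD163, a scavenger receptor of macrophages, F13A1, a coagulation factor subunit, and TNFAIP6, a hyaluronan-binding protein, fell, with log2 differences of -3.49, -3.63 and -3.35. Among the marker lists themselves, 5 of 6 tested endothelial markers, 3 of 6 fibroblast markers, 3 of 8 macrophage markers and 3 of 4 Schwann cell markers were called lower in members over 5 pigs and 0 of these higher. Of 6 tested pericyte markers 0 were called in either direction and 4 had positive differences. CSPG4, a proteoglycan of mural cells, was called higher in the control pigs (log2 0.43, SE 0.09), and was not called there with markers of other types left out.

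Early response and heat shock genes formed the list with the most calls of one direction. Over 5 pigs 11 of 20 were called lower in members and 0 higher, with a median log2 difference of -0.89 beside -0.08 over all genes. In the control pigs 13 of 18 were called lower, 12 of 18 with the rest matched for depth and 7 of 18 with markers of other types left out. FOSB, a subunit of the AP-1 transcription factor, was at 131, 14.9, 285, 66.7 and 53.5 CPM in members and 278, 146, 551, 136 and 135 CPM in the rest. It was lower in members of 5 of 5 pigs and fell by 1.23 on the log2 scale (SE 0.25). The orphan nuclear receptor gene NR4A3 fell by 1.47 (SE 0.25), from 104 to 371 CPM in the rest to 14.9 to 129 CPM in members, NR4A1 by 1.18 (SE 0.24) and ATF3 by 1.29 (SE 0.27). In the control pigs DNAJB1, a co-chaperone of the heat shock response, was at 1.44 and 48.1 CPM in members and 5.17 and 240 CPM in the rest (log2 -2.15, SE 0.18). The chaperone genes HSPA8 and HSPH1 fell there, with log2 differences of -1.76 and -1.28. HSPA8 was higher in members of obese pigs 2 and 3, at 193 and 261 CPM against 157 and 171 CPM. In obese pig 2 FOS (327 against 285 CPM), JUN (74.4 against 70.3 CPM) and HSPH1 (625 against 416 CPM) were also higher in members. So was DNAJB1 in obese pig 3 (92.4 against 76.3 CPM). The 2 control pigs differed more than members and rest did for these chaperones, with HSPH1 at 63.1 and 756 CPM in their rest.

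**Figure D5:**
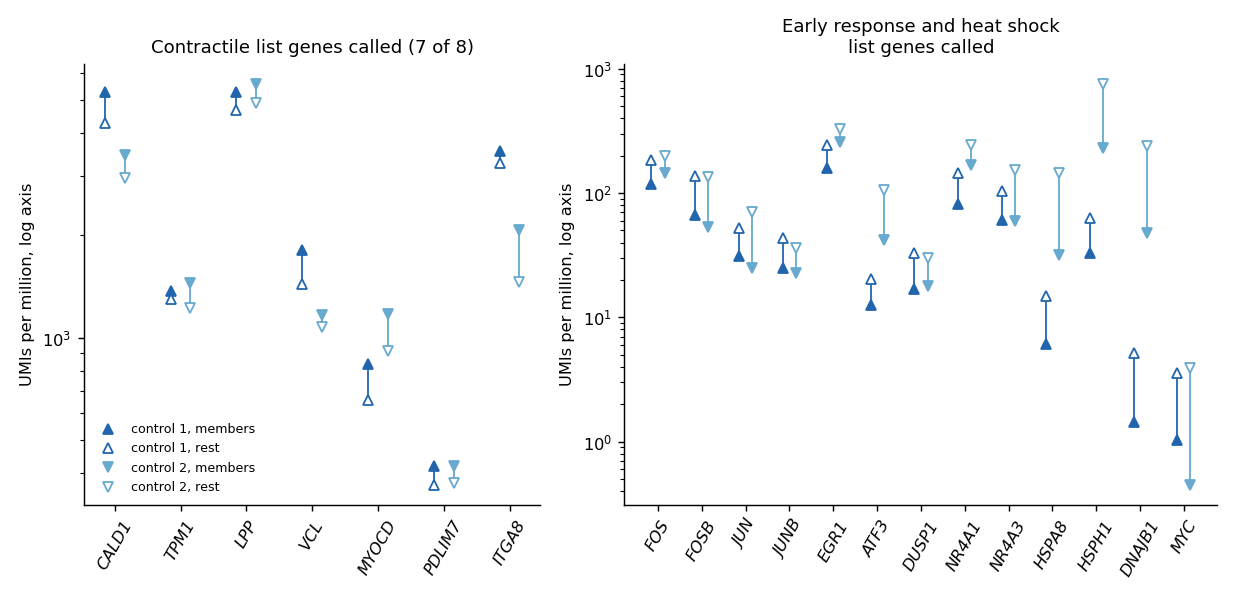
Levels in CPM, on log axes, of genes called in the control pigs from the contractile list (left, 7 of the 8 called) and the early response and heat shock list (right). Filled symbols are members and open symbols the rest of the same pig, joined by a line. Each of the 7 contractile genes drawn is higher and each of the 13 early response and heat shock genes lower in members of both pigs.

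Contractile genes outside the rule were slightly higher in members of the control pigs. Of 17 genes, 8 were called higher and 0 lower there, with a median log2 difference of 0.26 beside -0.01 over all genes. MYOCD, the myocardin coactivator of smooth muscle genes, was at 837 and 1174 CPM in members and 656 and 917 CPM in the rest of the control pigs (log2 0.46, SE 0.08). CALD1, ITGA8, VCL, LPP, PDLIM7 and TPM1 were called at log2 differences of 0.27 to 0.42. With the rest matched for depth 11 were called, and with markers of other types left out 2, MYOCD among them. Over 5 pigs 0 of 17 were called, and MYOCD was lower in members of obese pigs 2 and 3, at 312 and 888 CPM against 522 and 1267 CPM in their rest.

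Genes of modulated smooth muscle were lower in members. Of 11 tested, 6 were called lower over 5 pigs (VCAM1, KLF4, FN1, COL8A1, THBS1 and DCN) and 0 higher, with 0 of 11 above zero. THBS1, thrombospondin 1, was at 43.5, 253 and 217 CPM in members of the obese pigs and 45.5 and 91.3 CPM in those of the control pigs, against 902, 425, 810, 80.4 and 115 CPM in the rest. It fell by 1.28 (SE 0.23) over 5 pigs and by 0.47 (SE 0.13) in the control pigs. KLF4, a transcription factor of modulation, was at 0, 0, 56.3, 1.64 and 2.23 CPM in members and 26.1, 21.6, 42.3, 10.3 and 13.8 CPM in the rest (log2 -1.61, SE 0.36). It was higher in members of obese pig 3 and lower in the other 4 pigs. In the control pigs with markers of other types left out, 0 of 10 of these genes were called.

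Calcium genes moved in both directions. In the control pigs 6 of 18 calcium handling genes were called higher and 3 lower. RYR2 and RYR3, the ryanodine receptors that release stored calcium, rose by 0.58 (SE 0.08) and 0.42 (SE 0.08), RYR2 from 1360 and 1155 CPM in the rest to 1893 and 1584 CPM in members. ATP2B4, a calcium pump of the plasma membrane, rose by 0.58 (SE 0.09), while ITPR3, ATP2B1 and ORAI1 fell. RYR2, RYR3 and ATP2B4 were also called with markers of other types left out, and ITPR3, ATP2B1 and ORAI1 were not. Among 13 voltage-gated calcium channel genes besides CACNA1A, CACNA2D1 rose by 0.48 (SE 0.08) in the control pigs. There CACNA1G fell by 1.10 (SE 0.28), and CACNA1D, which encodes an L-type channel pore, fell too. With markers of other types left out CACNA2D1 and CACNA1D stayed called and CACNA1G did not. Over 5 pigs CACNA1D was called lower (log2 -1.11, SE 0.31), as were ITPR3 (log2 -3.25), ORAI1 (log2 -2.27) and ATP2B1 (log2 -0.91). No calcium gene was called higher there. With markers of other types left out over 5 pigs, CACNA1D stayed called and ITPR3, ORAI1 and ATP2B1 did not.

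Relatives of the panel genes did not follow them as families. HMCN2, the other hemicentin, was at 0, 0, 4.02, 3.69 and 1.78 CPM in members and 31.7, 71.4, 7.83, 13.2 and 12.46 CPM in the rest, and fell by 2.11 (SE 0.39) over 5 pigs. LAMC3, a laminin chain, was at 29.1 and 35.2 CPM in members and 134 and 111 CPM in the rest of the control pigs, and fell by 1.88 (SE 0.31) over 5 pigs. It was called lower also in the control pigs with markers of other types left out (log2 -1.59). Of 20 basement membrane genes in the control pigs 3 were called higher (COL4A5, COL4A6 and HSPG2, at 0.37 to 0.55) and 4 lower. With markers of other types left out HSPG2 stayed called, and COL4A5 and COL4A6 did not. Of the lower genes HMCN2, LAMA3 and LAMC3 stayed called and NID1 did not.

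Among 20 contactin and neural adhesion genes in the control pigs, 3 were called higher and 7 lower. CNTN1, another contactin, was at 117 and 120 CPM in members and 79.0 and 51.9 CPM in the rest (log2 0.97, SE 0.13), and PTPRD, a receptor phosphatase of synaptic adhesion, at 330 and 490 CPM against 222 and 297 CPM (log2 0.76, SE 0.10). CNTN3 fell by 2.32 (SE 0.42), and unlike CNTN1 and PTPRD it was not called with markers of other types left out. NLGN1, a neuroligin, fell by 1.77 (SE 0.20) in the control pigs, and had a log2 difference of 0.29 (edgeR adjusted p = 0.785) with markers of other types left out, so the direction turned. GALNT15, a relative of GALNTL6, fell by 1.99 (SE 0.27), and 1 of 12 GALNT genes was called higher (GALNT13, log2 0.89, SE 0.22). With markers of other types left out GALNT15 stayed called and GALNT13 did not.

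Of the Wnt genes beside WIF1, 4 of 27 were called higher in members of the control pigs (ROR1, the coreceptor LRP5 and the feedback inhibitors NKD1 and ZNRF3) and 5 lower (LEF1, RSPO3, DKK2, SFRP1 and FZD6). With markers of other types left out, ROR1, LEF1 and DKK2 stayed called there. LRP5, NKD1, ZNRF3, SFRP1 and RSPO3 (log2 -0.31) did not, and FZD6 was not tested. LEF1, a transcription factor of the pathway, was at 0 in members of the obese pigs and at 1.64 and 0.446 CPM in those of the control pigs, against 7.64 and 5.12 CPM in the control rest (log2 -2.35, SE 0.46). MYOM1, which encodes the sarcomere protein myomesin, rose by 0.76 (SE 0.10) and MAP2, a microtubule-associated protein, by 0.65 (SE 0.10) in the control pigs. With markers of other types left out MYOM1 stayed called there and MAP2 did not. Over 5 pigs 0 of 18 other myosin and sarcomere genes and 0 of 21 microtubule genes were called higher, and 1 of each was called lower (MYOM2 and MAP7). PRDM6, a transcriptional regulator of smooth muscle, was at 976 and 1048 CPM in members and 717 and 801 CPM in the rest (log2 0.53, SE 0.08 in the control pigs), the one gene called among 21 artery position genes.

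Other smooth muscle states named from these data met the members unevenly. The summed CPM of CTNNA3, RGS6 and EDNRB was 43.5, 89.2, 450, 432 and 515 in members and 1865, 1166, 844, 1121 and 977 in the rest, lower in members of 5 of 5 pigs with all 3 genes called. Scored per nucleus as the panel was, these genes did not have a lower mean in members of every pig. The mean score was higher in members of obese pig 3 (0.388 against 0.291) and control pig 2 (0.400 against 0.378) and lower in those of the other pigs. The summed CPM of the COL19A1 genes was 2096 and 2370 in members and 1443 and 1679 in the rest of the control pigs, and ADAMTSL1, a secreted protein of that set, rose by 0.69 (SE 0.18) over 5 pigs although obese pig 2 had 610 CPM in members and 881 CPM in the rest. It was not called over 5 pigs with markers of other types left out (log2 0.48, edgeR adjusted p = 0.356). Of the IGSF10 genes, HRH1, a histamine receptor, and TMEM108 rose in the control pigs, by 0.43 (SE 0.10) and 0.68 (SE 0.14), and neither was called with markers of other types left out. PTGER3, a prostaglandin E2 receptor, rose by 0.49 (SE 0.09) in the control pigs and had a log2 difference of -0.06 over 5 pigs. Of the GPRC5A genes 0 of 3 were called.

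The panel genes span long stretches of the genome, from 93.5 kb for WIF1 to 1215 kb for GALNTL6 in RefSeq's pig annotation. A check of length over the called genes was void, because 78.3% of the genes higher in the control pigs and 70.9% of all tested there had a length, under the 80% set for it. Among those with a length, the median was 164 kb for genes called higher, 101 kb for genes called lower (84.8% with a length) and 36.3 kb for all tested. The part of gene length in these calls was not tested.

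The diets could not be compared within the members, because obese pigs 1 and 2 held under 20 of them. In place of that, the top 5% of each pig by its own score were compared, at least 143 nuclei a pig, although the scores of the obese nuclei were lower. There 20 genes were higher in obese pigs (0.222% of 9024) and 10 lower (0.111%). In the top 10% by pooled score, with at least 25 nuclei a pig, 2 genes were higher and 1 lower of 7008 tested (RGS2, ZFP36L2 and NCAM2), so of the genes named next RGS2 and NCAM2 alone were called in both sets. SREBF2, which encodes the regulator of sterol synthesis genes, was at 19.1, 24.8 and 21.4 CPM in the obese pigs and 89.1 and 85.8 CPM in the control pigs (log2 -2.05, SE 0.28). SQLE, a sterol synthesis enzyme, was at 11.2, 7.79 and 6.42 CPM against 36.7 and 42.0 CPM. The genes named from this set were chosen among called genes with no overlap of the diets, so their separation follows from that choice. RGS2, a brake on G protein signalling, was at 176, 92.7 and 132 CPM against 5.65 and 7.57 CPM (log2 4.32, SE 0.42), and THBS1 at 583, 297 and 553 CPM against 55.7 and 112 CPM. DUSP1, a stress-induced phosphatase, and HSPA8 rose by 3.17 and 3.62. NCAM2, a neural adhesion gene, fell by 3.79 and ITGB5, an integrin chain, fell by 1.45. Diet differences of THBS1 and DUSP1 were not particular to the top nuclei. In the rest by the pooled rule THBS1 was at 902, 425 and 810 CPM against 80.4 and 115 CPM. DUSP1 was at 150, 115 and 248 CPM there against 33.1 and 29.8 CPM. HSPA8 overlapped there, at 89.5, 158 and 171 CPM against 14.9 and 145 CPM.

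A test of whether the diet difference in members differed from that in the rest called 53 genes (0.375% of 14136), 16 with a positive and 37 with a negative term. It rests on the 51 members of the obese pigs. With control pig 1 left out 0 genes were called by edgeR (310 at an unadjusted p under 0.05), with control pig 2 left out 2, and DESeq2's Wald test called 1. IL1RL1, the interleukin 33 receptor, was at 0, 0 and 4.02 CPM in members of obese pigs 1 to 3, against 87.2, 32.7 and 110 CPM in their rest. In the control pigs it was at 17.8 and 50.3 CPM in members and 17.4 and 52.9 CPM in the rest. It was lower in members of all 3 obese pigs and nearly level in both control pigs. SLC7A11, a cystine transporter, was at 21.8, 14.9 and 12.1 CPM in members of the obese pigs and 74.5 and 157 CPM in those of the control pigs. In the rest it was at 43.5, 47.8 and 55.7 CPM in obese and 52.3 and 83.6 CPM in control pigs. The levels in members rest on 5 UMIs in the obese pigs and 715 in the control pigs, from sets of unlike total.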

How the data were processed

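Single-nucleus RNA libraries from 5 pigs, 1 per pig, were deposited by the authors as raw UMI counts per gene and barcode. The counts were made with Cell Ranger, version 5.0 per the labels and 7.1.0 per the file headers, and Seurat 5.0 is named per the submitters' processing notes. Whether introns were counted is not given in the sources used here. The smallest barcode held 500 UMIs.

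Nuclei were scored in Python 3.11.15 with scanpy 1.11.5 and scipy 1.17.1, and 35670 features were read, of which 17508 carried a symbol in the files and 223 more were named from the reference table. Counts were summed per pig and set and tested with edgeR 4.0.16 (quasi-likelihood, TMM, filterByExpr, Benjamini-Hochberg adjustment, threshold 0.05, R 4.3.3). Members and rest came from the same pigs, so the pig was a block there. The panel and smooth muscle genes were left out of that test. DESeq2 1.42.0 was an alternative. Alternatives restricted to control pigs, leaving out nuclei with markers of other types, or taking the top 5% of each pig were chosen after seeing the data, as was the diet test over all eligible nuclei.

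Named genes had a symbol, a mean of at least 10 CPM and the same sign in 5 of 5 pigs, up to 12 in each direction, plus up to 4 called genes per list. Other list genes named from the control pigs were chosen after their values were seen. The members and the lists were chosen with earlier results of these data known. With the pig as a block, edgeR's p-values measure how far the difference of members and rest varied between pigs, with spread shared among genes. In the diet tests without a block they measure the spread between pigs of a group. On simulated counts for members against rest over 13668 genes, 35% of 100 genes changed by 1 on the log2 scale and 89% of 100 changed by 2 were recovered, with 9 false calls.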

Additional observations from a re-analysis of the deposited data

Results flagged for a closer look

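A set of 10 genes stood out because their difference between members and the rest differed between the diets (edgeR interaction term, obese minus control, on the log2 scale), and each rests on few nuclei of the 51 members of obese pigs. DIAPH3, a formin, had a term of 6.49 (SE 0.63, adjusted p = 2.47e-20), and all 40 of its UMIs in members of obese pigs lay in 1 nucleus of obese pig 3, against 9 UMIs in 9 nuclei of the control pigs. MELK, a mitotic kinase, had a term of 5.60, with 5 UMIs in 2 nuclei of obese pigs. GRIN2A, an NMDA receptor subunit, had a term of 4.30, and 13 of its 15 UMIs lay in 1 nucleus of obese pig 2. CIT, a kinase of cytokinesis, had a term of 3.90 from 9 UMIs in 3 nuclei of obese pig 3. FAM78B had a term of 3.71 from 9 UMIs in 2 nuclei.

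The genes with negative terms had few or no UMIs in members of obese pigs. Over all genes these members held 45926, 67241 and 248794 UMIs, against 4874646 and 2244837 in the control pigs. P2RY12, a purinergic receptor, had a term of -12.22 and RELL1 one of -11.81, with 0 UMIs there against 17 and 70 in members of control pigs, in 9 and 41 nuclei. With 0 UMIs these fitted values depend on the prior count and are no bounds. Diet differences in the rest also entered them. There P2RY12 was at 17.1, 92.6 and 4.46 CPM in obese and 1.26 and 1.01 CPM in control pigs. RELL1 was at 102, 96.1 and 19.6 CPM against 13.7 and 11.4 CPM. In members of the control pigs P2RY12 was at 3.28 and 0.445 CPM. At such totals its 0 UMIs do not show a lower level in members of the obese pigs than in those. IL1RL1 had a term of -5.40 (SE 0.98, 1 UMI against 200), PRLR, the prolactin receptor, one of -3.28 (SE 0.80, 3 against 344) and SLC7A11 one of -2.98 (SE 0.68, 5 against 715). These counts are not scaled to the totals. As levels in members, PRLR was at 0, 14.9 and 8.04 CPM in obese and 36.9 and 73.1 CPM in control pigs. SLC7A11 was at 21.8, 14.9 and 12.1 CPM against 74.5 and 157 CPM.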

How the results depend on the processing

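The share of members stayed lower in obese pigs under every alternative for which it was compared, from -17.6 to -5.03 percentage points. Taking the top 5% of each pig fixes the share in advance, and so does drawing a rest to match the members, so neither was compared. The count of genes differing between members and the rest was 679. It was 1066 for the top 10% by score, 41 with the rest matched on UMIs (5511 genes tested, 406 at an unadjusted p under 0.05), 1130 for the top 5% of each pig, 301 with markers of other types left out, and 191 with DESeq2's Wald test. In the control pigs it was 1153, or 1103 with matched UMIs and 245 with markers of other types left out. With the highest Scrublet scores removed over 5 pigs, 39 genes were called higher and 597 lower in members. Leaving out 1 pig gave 230 (without control pig 1) to 795 (without obese pig 3), and 362 without control pig 2. SEMA3E had a log2 difference of -0.0618 for the top 2.5%, where obese pig 2 had 0 members and was not fitted. Over the named genes, 361 of 456 refits kept direction and side of the threshold, 94 lost the call and 1 turned.

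The count for the diet difference in members against the rest was 53. It was 83 for the top 2.5%, 120 for the top 10%, 25 for the top 5% of each pig and 1 with DESeq2's Wald test. DESeq2 size factors gave 31, of which 22 were positive and 9 negative, against 16 and 37. With matched UMIs it was 0 in edgeR (311 at an unadjusted p under 0.05). Leaving out 1 pig gave 0 in edgeR (without control pig 1, 310 at an unadjusted p under 0.05) to 96 (without obese pig 1), with 84 without obese pig 2 and 2 without control pig 2.

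The count for the diet over all eligible nuclei was 33, and 805 with DESeq2's Wald test. Keeping genes of low counts gave 1060. Leaving out 1 pig gave 0 in edgeR (without obese pig 1, control pig 1 or control pig 2, with 1830, 1699 and 2156 at an unadjusted p under 0.05) to 479 (without obese pig 3), and 150 without obese pig 2. The causes were not tested.

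Without the pig as a replicate block, 133 genes differed between members and the rest (1 higher, 132 lower), and 0 for the diet difference (edgeR, 799 at an unadjusted p under 0.05). Replicate numbers name different pigs across the diets, and deviations of same-numbered pigs correlated at 0.0732 and -0.0529 over 18385 genes, so they were not paired. A replicate block on these numbers gave 271 genes for the diet.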
